A study of Gallus gallus with 5 samples.

Results

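The regions described here are stretches of open chromatin that were listed in both ATAC-seq libraries of ThrbCRM1-negative chick retinal cells and in none of the 3 libraries of ThrbCRM1-positive cells. ATAC-seq marks accessible DNA by letting the transposase Tn5 insert sequencing adapters into it. For each library the deposited intervals were ranked by their highest fold enrichment, and the 50000 strongest of all 5 libraries were merged wherever they shared at least 1 bp. A merged region was kept when both negative libraries had one of their strongest intervals there and every positive list, searched to its last rank, had none. This gave 2476 negative-specific regions among 79104 merged regions, with mitochondrial DNA left out. They are 3.13% of all regions, and 6.05% of the 40943 regions that had one of the 50000 strongest intervals in each negative library. The mirrored rule gave 2607 positive-specific regions (3.3% of all). Fold enrichments and the lists themselves chose the members, so their strength and their absence from positive lists are given as a description.

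Retinas of chick (Gallus gallus) embryos at embryonic day 5 received the plasmids ThrbCRM1-GFP and CAG-Cherry by electroporation and were kept as explants for 48 h. Papain-dissociated cells were sorted by flow cytometry into Cherry+/GFP+ cells (ThrbCRM1+, 3 libraries) and Cherry+/GFP- cells (ThrbCRM1-, 2 libraries). All libraries thus come from cells that took up plasmid, and the groups differ in whether the reporter was seen. The negative group is defined by the lack of a reporter signal and is not 1 cell type. In such mixed samples, a site open in few cells and a site weakly open in many cells cannot be told apart. The labels do not say whether libraries came from separate embryos or cultures, so the p values below measure only the spread between these libraries.

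ThrbCRM1 is a cis-regulatory module of the thyroid hormone receptor beta gene, and in the early retina it is active in dividing cells whose daughters become cones and horizontal cells. The electroporated cells outside this population include multipotent progenitors, and the retina at this age also forms ganglion cells and amacrine cells. Chromatin that is accessible in one cell type and not in another lies mostly away from promoters, at enhancers, where transcription factors bind and displace nucleosomes. Sites accessible in nearly every cell type are typically promoters and insulators, and these give the strongest ATAC-seq intervals.

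The 5 lists held 71596 to 104902 unique intervals. The authors' fold enrichment and p value together fix the coverage of a summit and the background expected there, because the peak caller computes both from these 2 quantities. Coverage is given here in fragments, but whether the caller counted whole fragments or extended reads is not stated. Solving for coverage and background returned a whole-number coverage (within 0.05) for 99.97 to 99.98% of rows in every list. The genome-wide background recovered in this way was 8.02, 6.07 and 4.48 fragments per base in positive replicates 1, 2 and 3. It was 7.08 and 8.002 in negative replicates 1 and 2. At that background, the weakest listed summit had a coverage of 17, 15 and 12 fragments in the positive lists, which is a fold of 2.00, 2.26 and 2.37. In the negative lists it had 16 and 17 fragments, a fold of 2.10 and 2.00. Where the local background is raised, a summit needs more fragments than these to be listed, so accessibility in positive cells can go unlisted.

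The negative-specific regions were of modest strength in the negative libraries. Their median coverage was 30 fragments in negative replicate 1 (range 22 to 93) and 39 in negative replicate 2 (range 28 to 143). The median fold over local background was 3.49 in replicate 1 and 4.05 in replicate 2. The lower and upper quartiles of fold were 3.09 and 4.08 in replicate 1 and 3.55 and 4.81 in replicate 2. Over all 40943 regions found in both negative libraries, the medians were 52 and 70 fragments and folds of 5.02 and 5.81. A fold of 3 or more in both libraries was reached by 2044 members, of 5 or more by 121, and of 6 or more by 28. Only 65 members were among the 20000 strongest intervals of both libraries, and 242 more in those of 1 library. For 1143 members (46.2%) the background behind the fold was at the genome-wide level in both libraries. Their fold is thus over that level, and whether the local level was lower is not shown. Counted per library, the background was at the genome-wide level for 52.7% of members in replicate 1 and 59.0% in replicate 2. The shares were 24.6% and 27.1% over all regions in both negative lists, which were stronger. They were 45.4% and 54.2% with 1 positive list, 39.7% and 46.9% with 2, and 18.6% and 19.6% with all 3. Ranks were split evenly between the libraries, with 1205 of 2476 members (48.7%) stronger by rank in replicate 1.

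**Figure D1:**
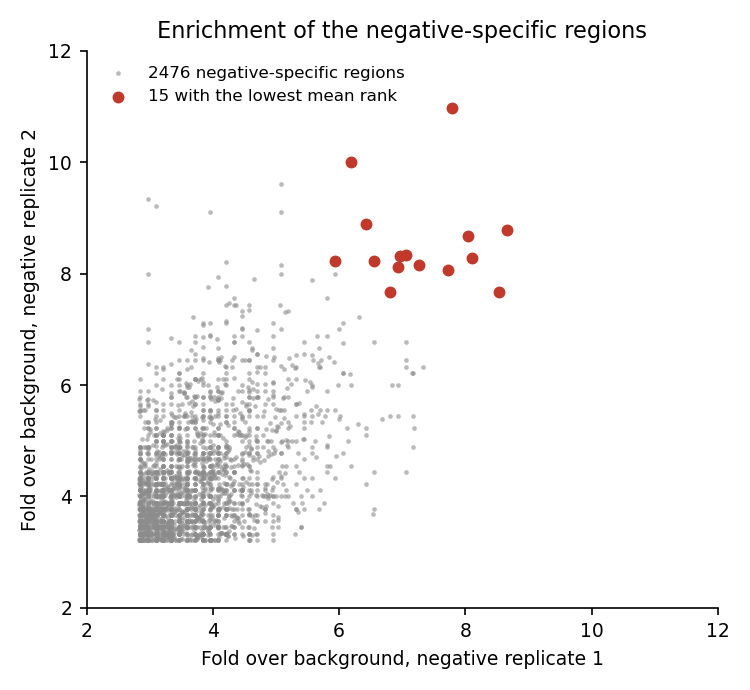
Fold over local background of each of the 2476 negative-specific regions in negative replicate 1 (horizontal axis) and negative replicate 2 (vertical axis), each relative to its own library. Most points lie near the lower edges set by the ranking, and the 15 regions with the lowest mean rank, in red, run from 5.94 to 8.66 in replicate 1 and from 7.66 to 10.97 in replicate 2.

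The strongest negative-specific region by mean rank lay on chromosome Z from 51757741 to 51758425 in the galGal5 assembly, a single-summit interval of 685 bp. Its summit was covered by 62 fragments in negative replicate 1 and 112 in negative replicate 2, against a background of 7.08 (the genome-wide level) and 9.30. The summits of both libraries fell on the same base, and the nearest interval in any positive list was 5216 bp away, in positive replicate 3. The next region, on chromosome 3 from 99547392 to 99547788, was covered by 69 and 78 fragments in replicates 1 and 2. It was the more isolated one, with the nearest positive interval 15769 bp away in positive replicate 2 and 33267 and 38564 bp away in replicates 1 and 3. A region on chromosome 3 from 10953382 to 10954135 had 64 and 81 fragments, with its nearest positive interval at 10279 bp. No other member was within the first 10000 ranks of both negative lists.

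On chromosome 3, 6.37% of the regions in both negative lists were members, against 6.05% of all such regions. It held 5 of the 15 strongest members. Besides those above, they lay from 90221818 to 90222840 (68 and 79 fragments), from 32124721 to 32125172 (49 and 89) and from 93160309 to 93160737 (66 and 79). The region at 32124721 was the least even of these, with a fold of 6.19 in replicate 1 and 10.0 in replicate 2. Chromosome 12 held 2 of the 15, from 14045325 to 14045688 and from 9574548 to 9575072. The first of these had the highest coverage of the 15 in replicate 1, at 80 fragments, with 88 in replicate 2. Its local background was also raised above the genome-wide level, to 9.76 fragments in replicate 2, and positive lists had an interval 2687 to 2784 bp away.

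The remaining 7 of the 15 were spread over 6 chromosomes. On chromosome 2, from 11426390 to 11427270, both negative libraries had 68 fragments, with a fold of 8.54 and 7.66. On chromosome 1, the regions from 138510367 to 138511210 and from 46235928 to 46236348 had 51 and 79, and 54 and 68 fragments. The others lay on chromosome 4 from 39049363 to 39049921, on 6 from 24235052 to 24235631, on 9 from 18972180 to 18972954 and on 7 from 29775768 to 29776303. Their coverage ran from 47 to 56 fragments in replicate 1 and from 72 to 77 in replicate 2. Among all 15 strongest members, 10 had a single summit in both libraries, widths ran from 364 to 1023 bp, and summits of the 2 libraries lay 0 to 30 bp apart (median 9 bp). Summit position was not used to choose the members, but the rule joins intervals of the 2 libraries by overlap. Overlap limits how far summits can differ, and the distance it alone would give was not computed.

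Agreement on the exact summit held for the set as a whole. The strongest summits of the 2 negative libraries were a median of 23 bp apart within a member, and 1869 of 2476 members (75.5%, exact binomial 95% interval 73.7 to 77.2%) had them within 50 bp. This interval covers counting error only, as do those below. Among regions listed in both negative libraries and in all 3 positive lists the share was 77.7%, with a median of 19 bp. At like strength the share was higher among members in each of the 5 rank bands, of which the first held only 7 members. Members in each band also had a single summit more often and were narrower, which leaves summits less room to differ. The part of number of summits and of width in this was not tested. At mean ranks 20001 to 30000, 80.6% of members and 74.9% of regions in all 3 positive lists had both summits within 50 bp, and at ranks 30001 to 40000 the shares were 74.7% and 70.5%. Strength itself agreed less well. The Spearman correlation of fold between the 2 negative libraries was 0.41 over the 2476 members and 0.89 over the 31522 regions in all 3 positive lists, which span a far wider range of folds. The median member differed by 6539 ranks between the libraries, and 113 members differed by more than 20000.

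Negative-specific regions were narrower than regions in all 3 positive lists and more often held a single summit. Their median width was 446 bp (quartiles 325 and 590), against 844 bp for regions in both negative lists and all 3 positive lists, and only 44 members reached 1 kb. A single summit was listed in 77.7% of members in negative replicate 1 and 69.6% in replicate 2, against 55.7% and 47.8% of the regions with all 3 positive lists. Regions with fewer positive lists lay nearer to the members, at 70.2% and 64.5% with 1 list and 68.4% and 61.5% with 2. The difference from regions in all 3 positive lists was also seen within bands of strength. At mean ranks 30001 to 40000, the median width was 435 bp for members and 644 bp for regions in all 3 positive lists, and the single-summit share in replicate 2 was 68.6% and 52.8%. Regions are merged over all libraries, so a region with intervals in 5 lists can only gain width from the positive ones. Summits were counted over the whole merged region, so merging can raise their number as well. The rule also drops a region that a positive interval touches by 1 bp, and a wider region is more easily touched. The part of these steps in the differences of width and summits was not tested.

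Both libraries listed a single summit for 1476 members (59.6%), and the others had a second summit or more in at least 1 library. The widest member lay on chromosome 5 from 5177950 to 5179403 (1454 bp), with 2 summits in replicate 1 and 3 in replicate 2 and a fold of 5.08 and 5.32. The next widest were on chromosome 12 from 19208241 to 19209689 and on chromosome 5 from 15217508 to 15218953, where the strongest summits of the 2 libraries lay 236 and 675 bp apart. Most summits were listed in a member on chromosome 10 from 10304900 to 10306019, with 4 in replicate 1 and 5 in replicate 2, covered by 48 and 55 fragments. It had a neighbour in positive replicate 2 only 50 bp from its edge.

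Absence from the positive lists was graded by strength. Of the 9684 regions with a mean rank up to 10000 in the negative libraries, 98.5% had an interval in all 3 positive lists and 7 had none. Among ranks 10001 to 20000, 88.6% were in all 3 positive lists and 116 regions (1.2%) in none. The share in no positive list rose to 5.73%, 12.4% and 20.7% in the next 3 bands, and the share in all 3 fell to 73.0%, 57.7% and 44.6%. Regions in 1 or 2 positive lists became more common along with the members, from 0.207% and 1.23% in the first band to 17.5% and 17.2% in the last. In width, the 2929 regions with 1 positive list (median 521 bp) and the 4016 with 2 (median 564 bp) lay between members and regions with 3.

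**Figure D2:**
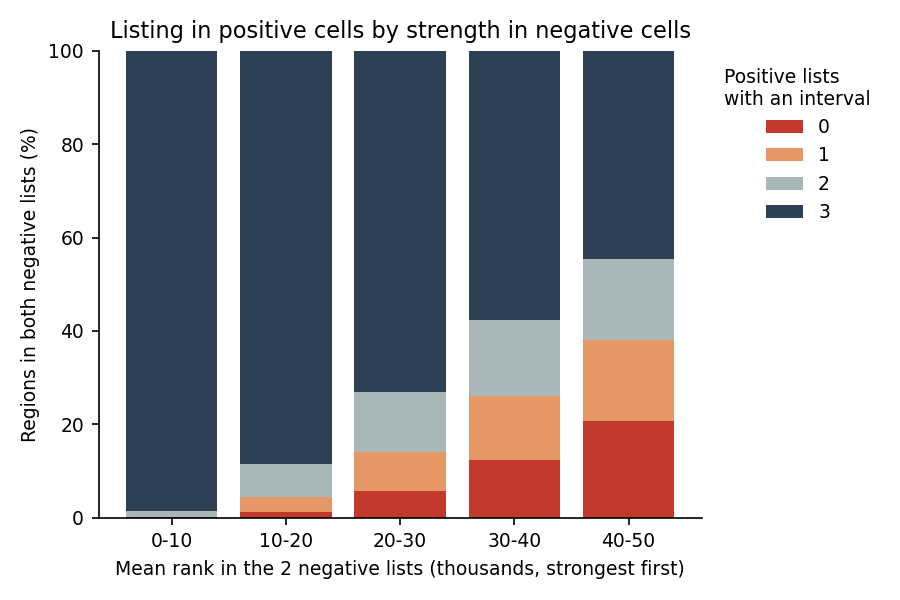
Regions in both negative lists, grouped by their mean rank there (horizontal axis, in bands of 10000) and split by how many positive lists had an interval of any rank at the region (stacked share in percent). The share with no positive list, in red, grows from 0.0723% in the strongest band to 20.7% in the weakest.

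Most near misses came from 1 positive library. Of the 2929 regions with an interval in a single positive list, 1823 (62.2%) were listed in positive replicate 1, 498 in replicate 2 and 608 in replicate 3. Positive replicate 1 also had the highest background coverage of the 3, at 8.02 fragments against 6.07 and 4.48, and the lowest fold at which a summit was listed. Its list was also the longest of the 3, with 86433 unique intervals against 72029 and 71596 in replicates 2 and 3. The part of these differences in the count was not tested. Without positive replicate 1 the rule gave 4311 regions, against 2974 and 3087 without replicates 2 and 3. Leaving out a positive library mainly adds the regions listed in it alone, so these counts largely restate those above. With 1 negative library in place of both, it gave 5459 regions (without negative replicate 1) and 5381 (without negative replicate 2).

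The last 2 regions inside the edge of the rule had weaker ranks of 49970 and 49977, one on chromosome 2 from 91684625 to 91685072 (27 and 32 fragments in negative replicates 1 and 2) and one on Z from 3829946 to 3830164 (23 and 28). The first 2 outside it, at ranks 50021 and 50025, lay on Z from 39526882 to 39527142 (25 and 28 fragments) and on chromosome 10 from 2772054 to 2772326 (30 and 75). There were 180 members whose weaker rank was within the last 1000 places, and 118 regions missing from all positive lists had theirs in the next 1000. In all, 3131 regions missing from all positive lists were among the strongest of 1 negative library and lower down in the other list. A further 2610 were among the strongest of 1 negative library and not listed in the other at all.

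Members lay on 29 chromosomes and 6 of them on unplaced sequences. Chicken chromosomes differ greatly in size, and the small microchromosomes are rich in genes and in GC. Chromosomes 1 to 5 held 1541 members, which is 6.57% of their regions in both negative lists (exact binomial 95% interval 6.26 to 6.90%). Chromosomes 6 to 10 held 397 (6.04%, 5.48 to 6.65%), the numbered chromosomes from 11 to 33 held 363 (4.43%, 3.99 to 4.90%), and Z held 169 (7.41%, 6.37 to 8.57%). Microchromosomes thus carried the smallest share of the 4 classes and Z the largest. Positive-specific regions did not follow this order, at 7.15%, 7.39%, 7.67% and 6.23% of regions in all 3 positive lists for the same 4 classes. Among single chromosomes with over 200 regions in both negative lists, the share ran from 0.87% on chromosome 27 (2 of 230) to 7.41% on Z, followed by 7.21% on chromosome 4.

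The lower share on microchromosomes was seen at each strength where members were common. At mean ranks 20001 to 30000 it was 3.69% on microchromosomes against 6.23% on chromosomes 1 to 5, at 30001 to 40000 it was 9.51% against 13.3%, and at 40001 to 50000 it was 14.5% against 22.3%. On Z the shares in these bands were 9.48%, 16.1% and 30.9%. The lists as a whole overlapped between groups in the share on microchromosomes. These held 19.0 to 23.3% of the 50000 strongest intervals over the 5 libraries, with 19.0 and 20.2% in negative replicates 1 and 2. The difference of -1.78 percentage points (negative minus positive) gave p = 0.4 by the two-sided exact permutation test over 10 splits, adjusted p = 1 over 4 classes. The smallest p that 10 splits can give is 0.1. The strongest microchromosome members were the 2 on chromosome 12 named above and one on chromosome 18 from 5240186 to 5240796, with 56 and 57 fragments.

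**Figure D3:**
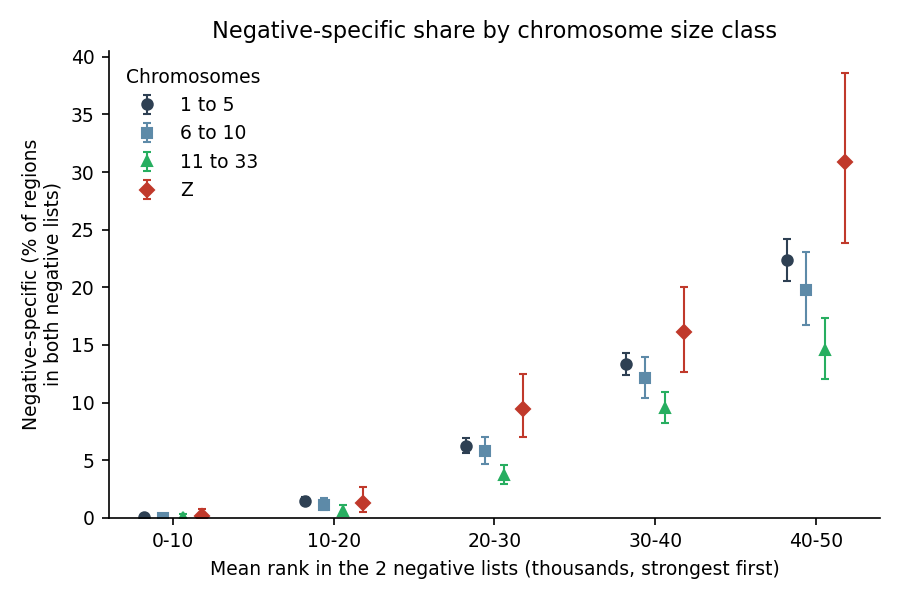
Negative-specific regions as a percent of regions in both negative lists (vertical axis) by mean rank (horizontal axis, in bands of 10000) and chromosome class, with exact binomial 95% intervals. From the middle band on, Z (red diamonds) lies highest and chromosomes 11 to 33 (green triangles) lowest, at 30.9% and 14.5% in the last band.

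Coverage on Z split the libraries across the groups. In birds females carry Z and W and males a pair of Z. The ratio of median summit coverage on Z to that on chromosomes 1 to 5, over regions shared by all 5 libraries, was 0.868 in positive replicate 1 and 0.863 in negative replicate 1. It was 1.14, 1.09 and 1.23 in positive replicates 2 and 3 and negative replicate 2. Replicate 1 of each group carries one style of library name in its peak names and the other 3 libraries another, and W intervals (11 and 15) were listed in the former and in none of the latter. The split thus follows the naming series and crosses the groups, and the group means differed by 0.0141, which is small beside their spread (p = 1 by the same exact permutation test). The part of this split in the number of Z members was not tested. Besides the region at 51757741, the strongest members on Z lay from 64949550 to 64950487 (44 and 70 fragments) and from 57813549 to 57813783 (48 and 76). Both had the higher coverage in negative replicate 2. The median over all members was also higher there, at 39 fragments against 30 in negative replicate 1. By rank, the region at 57813549 was stronger in negative replicate 1 (14636 against 15847).

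Of the negative-specific regions, 1855 had no other member within 50 kb. The nearest other member was a median of 129 kb away, and 621 members (25.1%, exact binomial 95% interval 23.4 to 26.8%) had another within 50 kb. Neighbours count each other here, so members are not independent and this interval can be too narrow. Of the positive-specific regions, 32.2% had another of their own kind within 50 kb, at a median of 107 kb. The share among members varied with the setting. It was 2.88% with the 30000 strongest intervals and 49.1% with 70000, and 38.9%, 44.6% and 46.5% without positive replicate 1, negative replicate 1 and negative replicate 2. For 52.1% of members the nearest specific region of either kind was another member, and members made up 48.7% of all specific regions. The median gap to one of the far more numerous regions shared by all 5 libraries was 13.9 kb, against 14.7 and 14.4 kb for regions in both negative lists and 1 or 2 positive lists. The median gap to an interval of any rank in a positive list was 3.18 kb. Only 3 members had no positive interval within 50 kb, counting those on sequences that hold none. In contrast, 200 members (8.08%) were within 500 bp of one.

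**Figure D4:**
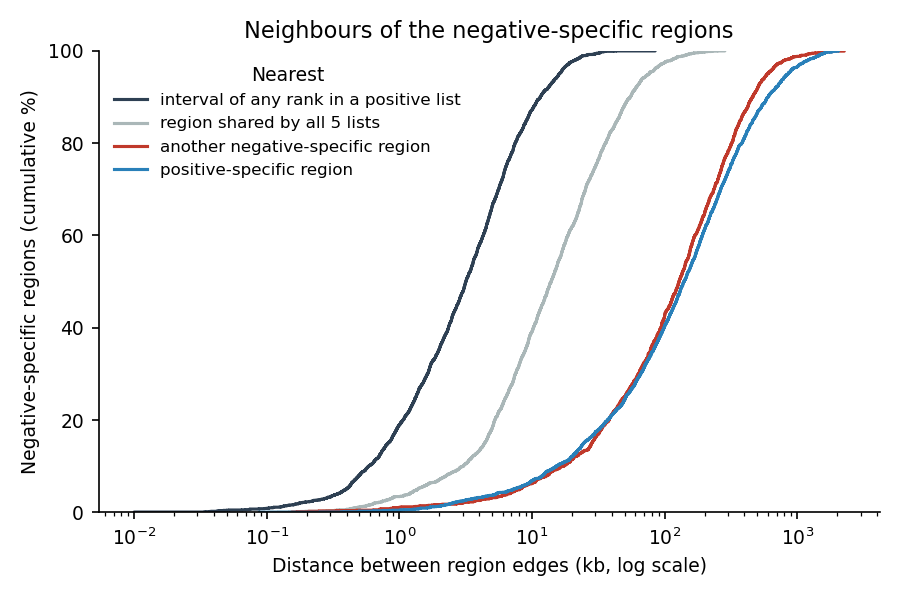
Cumulative share of negative-specific regions (vertical axis, percent) by the distance between edges to the nearest feature of 4 kinds (horizontal axis, kb, log scale). The curves for other negative-specific and for positive-specific regions nearly coincide, with medians of 129 and 141 kb, and both lie far to the right of the curve for any positive interval.

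Runs of members with gaps of 50 kb or less numbered 250 of 2 members, 31 of 3 and 7 of 4. The 5 most compact of the 7 runs of 4 are named here. The shortest lay on chromosome 9 from 11271085 to 11286906, a span of 15.8 kb that also held 1 positive-specific region and nothing else. Its coverage ran from 22 to 44 fragments. Another run of 4 on chromosome 9, from 18972180 to 19018967, began with one of the 15 strongest members (55 and 72 fragments) and held no region shared by all libraries. On chromosome 3, from 20135427 to 20192024, 4 members were the only regions in 56.6 kb, and positive intervals outside merged regions were not counted there. The remaining ones lay on chromosome 1 from 39258430 to 39311968 and on chromosome 3 from 67119978 to 67178371. Of the 38 runs of 3 or more, 15 held no shared region and 6 held a positive-specific one.

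A few members sat directly beside a positive-specific region. There were 12 within 1 kb of one and 170 (6.87%) within 10 kb. The 3 closest pairs, chosen after their values were seen, lay on chromosomes 4, 24 and 1. On chromosome 4 a member from 35932265 to 35932867 (61 and 56 fragments in negative replicates 1 and 2) ended 88 bp before a positive-specific region from 35932956 to 35933657 (29, 23 and 22 fragments in positive replicates 1 to 3). On chromosome 24 a member from 669816 to 670310 (27 and 38 fragments) lay 251 bp from a positive-specific region from 670562 to 671072 (48, 39 and 24). On chromosome 1 a member from 180787242 to 180787661 (48 and 48) lay 366 bp from a positive-specific region from 180788028 to 180788847 (91, 78 and 59). The rule and its mirror allow no overlap between a member and a positive-specific region, so that these stretches differ was set in advance.

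Regions shared by all 5 libraries were also examined near members. Within 10 kb of a member, the window chosen for this comparison, lay 1191 of the 27432 shared regions. Their median rank by fold was 2171, 2066 and 1892 places weaker than that of all shared regions in positive replicates 1, 2 and 3. In negative replicates 1 and 2 it was 2540 and 2940 places weaker, a difference of means of 697 places. With members and shared regions called anew without positive replicate 1 (4311 members), the difference was 286 places. In a window of 5 kb, with 484 shared regions, the shifts were 2808, 2195 and 2125 places in the positive and 5312 and 6181 in the negative libraries, a difference of 3371. In a window of 50 kb the difference turned to -397. The values of the groups did not overlap within 5 or 10 kb, and shared sites near a member were weaker than the median shared site in every library.

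These ranks are not independent of the choice of members and are given with no test. Fold is summit coverage over local background, with 1 added to each, and the background beside a member can take in fragments of that member, which the rule required in the negative libraries. Within 5 kb, the local background in multiples of the genome-wide level differed from that at all shared regions by -0.0912, -0.112 and -0.0958 in the positive libraries. In the negative libraries the differences were -0.0226 and -0.0798, nearer to 0 than in any positive library.

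Summit coverage leaves the local background out, but the shared regions were chosen by their rank by fold. Background thus still bears on which regions are compared. Ranked by coverage among the shared regions, those within 10 kb of a member were weaker by 1469, 2244 and 1496 places in the positive and by 1430 and 2276 places in the negative libraries. The groups overlapped, and the difference of 117 places gave p = 0.9 by the two-sided exact permutation test, adjusted p = 0.9 over 14 comparisons. Within 5 kb the shifts were 2923, 2861 and 2296 places in the positive and 3004 and 4149 in the negative libraries. The difference was 883 places (exact permutation test, p = 0.1, adjusted p = 0.175), with 80.5 within the first naming series and 1571 within the second. This p is the smallest that 10 splits can give. The 14 comparisons also hold those by fold and of local background, whose small p values can lower the adjusted value.

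Around positive-specific regions the shift by fold was the larger one in the positive libraries. Their 757 shared neighbours within 5 kb were weaker by 3621, 3340 and 3984 ranks in the positive and by 1763 and 1366 in the negative libraries, a difference of -2084, and within 10 kb the difference was -445. The local background there exceeded that of all shared regions by 0.205, 0.194 and 0.212 in positive and by 0.0566 and 0.045 in negative libraries. By coverage within 5 kb the direction was the other one, with shifts of 240, 0 and 366 places in the positive and 475 and 295 in the negative libraries (difference 183, exact permutation test, p = 0.4).

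**Figure D5:**
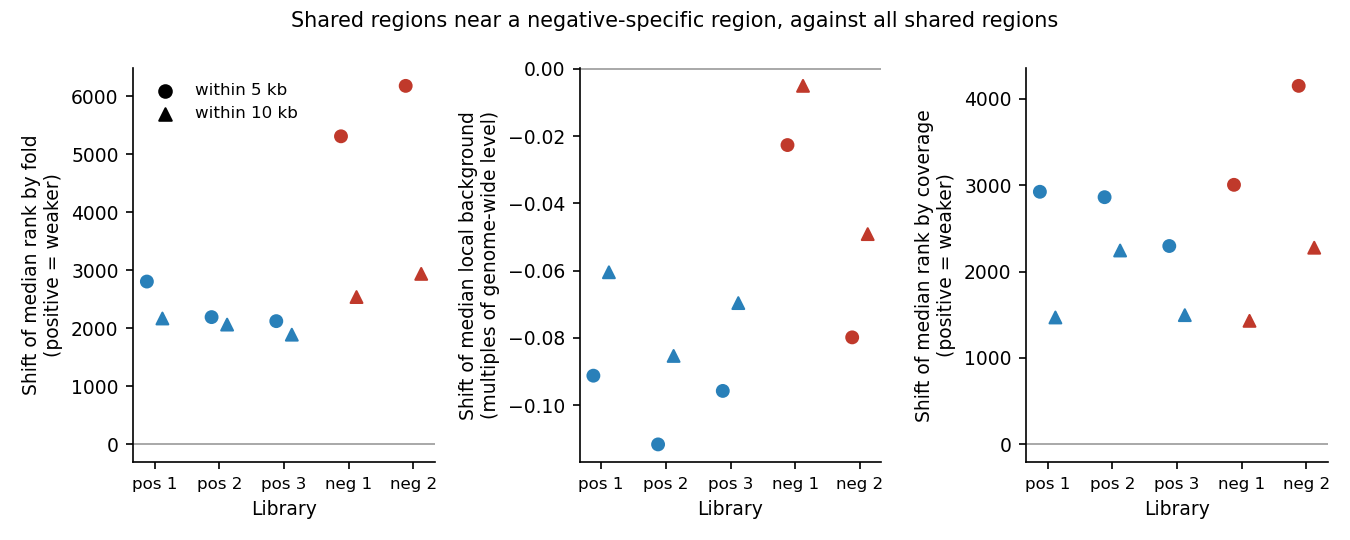
Shared regions within 5 kb (circles) or 10 kb (triangles) of a negative-specific region, set against all shared regions in each of the 3 positive (blue) and 2 negative (red) libraries, as shifts of the median rank by fold, of the median local background and of the median rank by coverage. By fold within 5 kb the negative libraries stand apart, at 5312 and 6181 places, and by coverage they lie closer to the positive ones.

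Further intervals around members were listed in shares that differed little between the groups. These intervals were ranked by fold, so local background can link them to the members as well. The test below therefore cannot show that the groups are alike. A top-50000 interval within 10 kb, leaving out every specific region, was listed beside 60.5, 57.4 and 59.1% of members in positive replicates 1, 2 and 3. The shares were 61.0 and 60.6% in negative replicates 1 and 2, so the lowest negative and the highest positive value nearly met. The difference of 1.80 percentage points (60.8 ± 0.314, SD, n = 2, against 59.0 ± 1.56, SD, n = 3) gave p = 0.2 by the two-sided exact permutation test, adjusted p = 0.28 over 14 comparisons. For these members it was 0.525 points in the first naming series and 2.32 in the second. With members called anew without negative replicate 1 (5459 regions), the difference was -0.617 points. The same shares around positive-specific regions were 66.6 to 69.4% over the 5 libraries.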

How the data were processed

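Bowtie2, MACS2 and the galGal5 assembly are named in the submitters' processing notes, without versions. The filters on duplicates, any extension of reads and any Tn5 shift are not given in the sources used here. Intervals were called per library, per the peak names in the deposited lists. The deposited columns hold a fold enrichment over local background (a ratio) by the authors, −log10 p and −log10 q values by the authors (smallest −log10 q 1.30), and a deposited score of 10 times −log10 q, which was not used. Fold values are not normalized between libraries.

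From these, summit coverage k and background λ were solved from MACS2's definitions, fold = (k + 1)/(λ + 1) and p the Poisson tail above k. These are coverages of 1 base, and the total reads per library are not known. Coordinates are galGal5, 1-based. Rows of 1 interval were merged, and regions were built as stated. Libraries were compared by a two-sided exact permutation test on means (10 splits, smallest p 0.1), with Benjamini-Hochberg adjustment over 14 comparisons. The planned test of shared-region ranks by fold, one of these, is not read as a test, since local background links fold to the members. The same holds for the other comparisons by fold and for those of local background. All remain among the 14, which can lower the adjusted p values of the rest. The flanking share rests on ranks by fold as well and is limited in the same way. Distances are gaps between edges. Regions named in the text are the 15 members with the lowest mean rank, the 5 runs with the most members (of equal runs, those with the shortest span), the 3 widest, the one with most summits, the 3 strongest on Z and on microchromosomes, and those nearest rank 50000. The members, lists and tests were chosen with earlier results of these data known. Planned motif, gene and sequence comparisons, and a check of the sorted cells by marker genes, need a galGal5 genome and annotation and were not analysed here. Alternatives were other rankings, list lengths, q values, overlaps, windows, left-out libraries and a replicate block. Calling was checked on simulated lists whose planted regions were fully present or absent. This check covers neither weak sites near the listing threshold nor the rank cut. Python 3.11.15, NumPy 2.4.6, pandas 2.3.3, SciPy 1.17.1 and matplotlib 3.10.9 were used.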

Additional observations from a re-analysis of the deposited data

How the results depend on the processing

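Alternatives chosen after the data were seen were the ranking by summit coverage, a common lowest fold of 2.37 for absence, and each naming series alone. The count of 2476 fell to 416 with the strongest 30000 intervals and rose to 5932 with 70000. It was 7751 in the first and 8097 in the second naming series, and ran from 2974 to 5459 when 1 library was left out. In these settings members and shared regions were called anew from the libraries kept. The values given for them below describe those sets. The ranking by −log10 p gave 2328 regions that overlapped 2053 of the members (82.9%), and the ranking by coverage gave 2401 that overlapped 1573 (63.5%). The rank shift within 10 kb (697) kept its direction except when ranked by coverage throughout (-491) and within 50 kb (-397), and ran from 286 to 905 with 1 library left out. The flanking share (1.80 points) turned to -1.23 with members rebuilt from the second naming series alone and ran from -0.617 to 2.45 with 1 library left out. Summits within 50 bp (75.5%) were 84.6% with 30000 and 65.1% with 70000 intervals, and 75.2 to 76.5% with 1 positive library left out. The share of members with another within 50 kb (25.1%) was 2.88% with 30000 and 49.1% with 70000 intervals, 30.2% with absence at q 0.01 or less, 33.4% with the common lowest fold, 27.9% with lists of equal length, 29.3% ranked by coverage, and 28.4 to 46.5% with 1 library left out. For all of these changes the cause was not tested.

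The groups share replicate numbers 1 and 2, and number 1 coincides with the first naming series. Rank differences between replicates 1 and 2 of the 2 groups correlated at 0.186 over the shared regions, and 2 pairs are too few to treat these numbers as a pairing. A replicate block over pairs 1 and 2 left positive replicate 3 out of the rule. This gave 3084 regions, nearly the 3087 found without that library. Of these 3084, 76.1% had summits within 50 bp and 31.2% had another within 50 kb, and no pairing enters the count or these shares. Averaged over the differences within the 2 pairs, the rank shift was 638 and the flanking share 1.86 points.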
